A study of Rattus norvegicus with 6 samples.

Results

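Macrophages of the trigeminal ganglion were read here through 29 transcripts, each matched by gene symbol in a table of 29884 genes. The 29 were Spi1, Csf1r, Aif1, Ptprc, Cd53, Laptm5, Itgam, Itgb2, Adgre1, Cd84, Mrc1, Cd163, Lyve1, Siglec1, Msr1, Cd14, Trem2, Tyrobp, Fcgr1a, Fcer1g, Cd68, Ctss, Lyz2, Lgals3, Gpnmb, Cybb, Ncf1, P2ry12 and Tmem119. All 29 were found and all 29 passed the filter on low counts, among 16478 genes that did.

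Macrophages live in sensory ganglia between the neuron cell bodies, their satellite glia and the vessels. After a peripheral nerve is injured, macrophages gather around the injured cell bodies, clear debris through scavenger and Fc receptors, and release mediators that act on neurons. The lineage depends on the transcription factor PU.1, encoded by Spi1, and on the receptor for colony stimulating factor 1, encoded by Csf1r, whereas many of the other genes are also active in neutrophils, osteoclasts or other cells of the blood.

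Both groups were wild type rats with a constricted infraorbital nerve, the model called CCI-ION, in which the nerve to the whisker pad is tied to produce facial pain. The injury group had the constriction alone (n = 3), and the conduit group had the constriction and SFM-Gel @NGC-Light, a light-driven gel in a nerve conduit (n = 3). Uninjured ganglia were not analysed here, and the sources used here give no strain, age or sex. The labels place injury samples 1, 2 and 3 at days 14, 15 and 16 and conduit samples 1, 2 and 3 at days 17, 18 and 19. These days rise by 1 from each sample to the next, so whether they are true sampling days is uncertain. Batch 1 holds only injury (samples 1 and 2) and batch 3 only conduit (samples 2 and 3), whereas batch 2 holds injury sample 3 with conduit sample 1. Whether the samples came from separate animals is not stated, so p-values measure the spread between these samples, which may be technical.

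Each library held 40.2 M to 41.9 M counts, and 19894 to 21061 genes had at least 1 count. Markers of the sensory neurons, satellite glia and Schwann cells of a ganglion were present in every library. Skeletal muscle transcripts stood out in injury sample 1 and conduit sample 2, where the 6 muscle genes in the table summed to 442 and 7571 CPM against 7.14 to 15.3 CPM elsewhere. Sums of a list cover all of its genes in the table, also those too low to be tested. CPM is the count scaled to the size of the library, after TMM normalisation. The ganglion was measured whole, so fewer macrophages and less RNA per macrophage cannot be told apart.

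The promoters of several of these genes hold the short sequence GAGGAA, the core that PU.1 is known to bind. RefSeq promoters of the GRCr8 build were on hand for 18 of the 29 genes, and 14 of the 18 (77.8%) held GAGGAA or its reverse complement TTCCTC within 250 bases before the start of the gene, against 23.3% of 33469 rat promoters of the same length. The longer form GAGGAAGT, which contains the shorter one, was found in 2 of the 18 (11.1%), Cd53 and Ctss, against 2.04% of all. The core was not in the windows of Cd163, Cd84, Lyve1 and Ncf1. The 100 bases before the start are shown, 5′ to 3′ on the strand of the gene, for the 8 genes in which the nearest core lay 14 to 46 bases from the start, to show where it lies. Capitals mark the core or its reverse complement.
Cd53 (GRCr8 chr2:197087897-197087996, minus strand): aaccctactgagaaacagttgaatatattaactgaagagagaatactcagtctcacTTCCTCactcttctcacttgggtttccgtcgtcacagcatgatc
Cd68 (GRCr8 chr10:54882442-54882541, minus strand): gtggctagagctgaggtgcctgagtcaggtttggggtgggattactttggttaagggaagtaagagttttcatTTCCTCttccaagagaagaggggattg
Ctss (GRCr8 chr2:185775296-185775395, plus strand): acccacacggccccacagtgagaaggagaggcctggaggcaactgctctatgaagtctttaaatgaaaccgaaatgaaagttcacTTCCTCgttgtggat
Cybb (GRCr8 chrX:16065066-16065165, minus strand): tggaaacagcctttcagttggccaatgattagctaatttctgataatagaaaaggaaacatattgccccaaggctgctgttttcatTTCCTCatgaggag
Itgam (GRCr8 chr1:192089492-192089591, plus strand): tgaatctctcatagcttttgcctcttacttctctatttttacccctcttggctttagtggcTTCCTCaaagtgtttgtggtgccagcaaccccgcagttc
Lyz2 (GRCr8 chr7:54798012-54798111, minus strand): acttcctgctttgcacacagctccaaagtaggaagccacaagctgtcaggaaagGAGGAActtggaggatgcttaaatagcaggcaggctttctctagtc
Mrc1 (GRCr8 chr17:82157625-82157724, plus strand): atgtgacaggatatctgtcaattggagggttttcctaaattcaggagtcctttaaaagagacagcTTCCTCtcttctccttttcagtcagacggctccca
Trem2 (GRCr8 chr9:20151780-20151879, minus strand): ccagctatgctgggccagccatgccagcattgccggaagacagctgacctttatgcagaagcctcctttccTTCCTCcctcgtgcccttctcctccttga
These matches describe the letters in each window. No binding was measured.

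No macrophage gene passed the threshold between conduit and injury, which was an adjusted p under 0.05 in edgeR's quasi-likelihood test. The count was 0 of 29 members, against 1 of 16478 genes (0.00607%), the gene RGD1563601, named here after its value was seen. At an unadjusted p under 0.05, 1 member was higher in conduit, Siglec1, where 2.99% of all genes were, and 1 was lower, Ncf1, where 2.36% were, and neither held in every setting. DESeq2 also called 0 of 29 members, against 1.23% of 17126 genes. The median log2 fold change of the members was -0.27, with 12 above 0 and 17 below, beside a median of 0.00173 and 49.5% below 0 over all genes. The members spread between libraries: the highest library exceeded the lowest by a median of 2.83-fold, and the fitted change was smaller than its own standard error in 17 of 29.

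**Figure D1:**
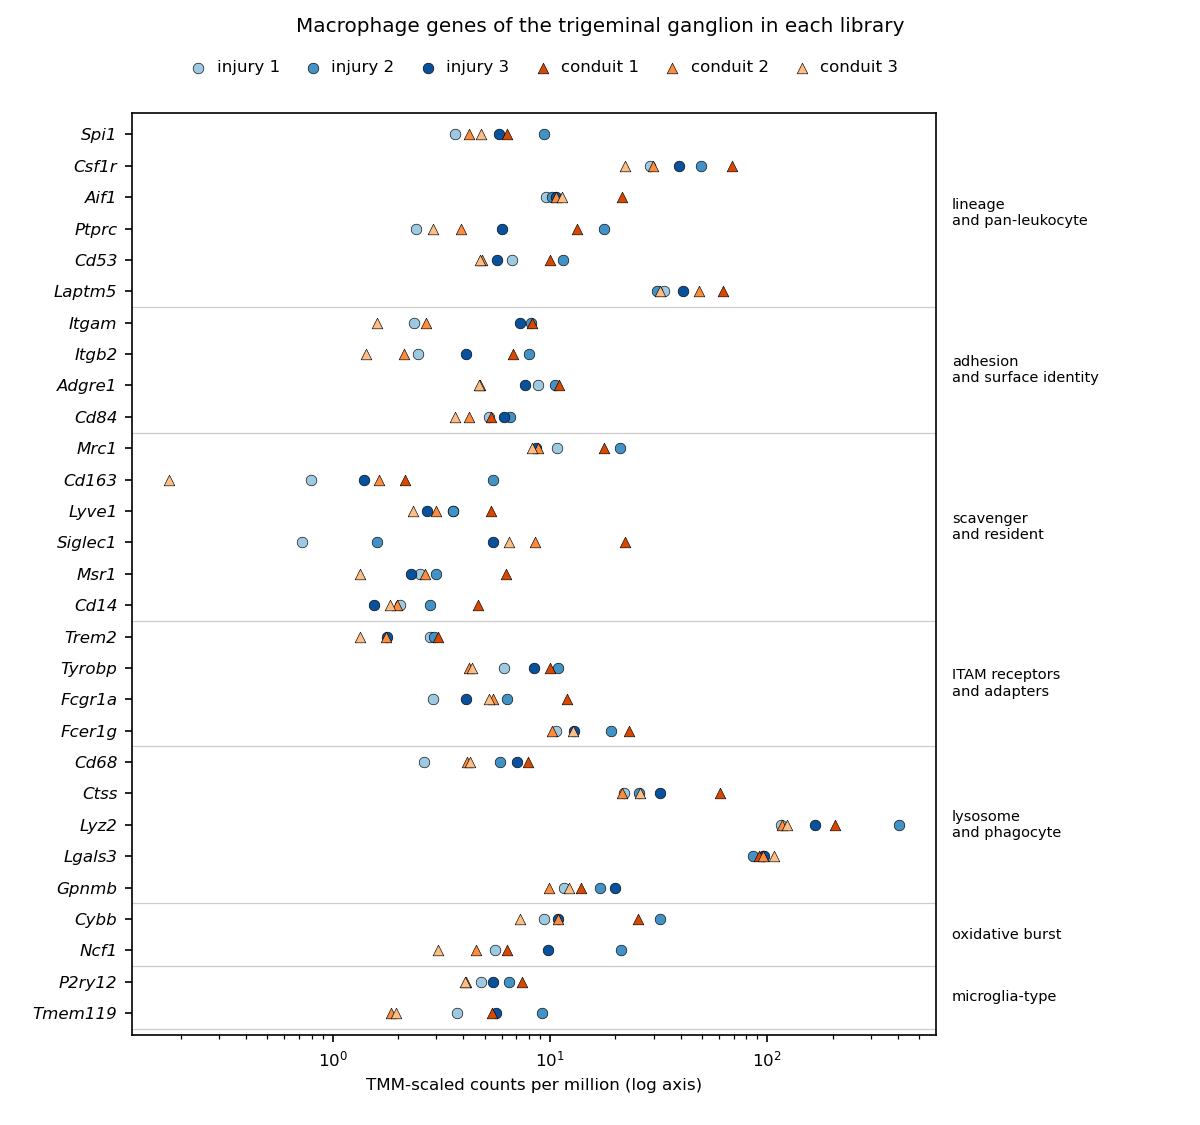
CPM (log axis) of each of the 29 macrophage genes in 3 injury and 3 conduit libraries, one point per library. The groups overlap in every gene except Siglec1, and Lgals3 is nearly level at 86.0 to 108 CPM.

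Per length, the most abundant were Lyz2, the secreted lysozyme of phagocytes, at a mean of 139.9 FPKM over the 6 libraries, and Lgals3, the lectin galectin-3, at 82.9 FPKM. FPKM is scaled to the length of the gene and the size of the library. Fcer1g, Ctss, Laptm5 and Tyrobp followed at 22.7, 21.9, 20.03 and 12.4 FPKM. The scavenger receptors Cd163 and Msr1 were the least abundant, at 0.289 and 0.288 FPKM. The lowest count of any member in any library was 7, for Cd163 in conduit sample 3, and every other member had at least 29 counts in each library.

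The genes that mark the lineage did not separate the groups. Spi1, which encodes PU.1, stood at 3.65, 9.37 and 5.81 CPM in injury samples 1 to 3 and at 6.37, 4.22 and 4.80 CPM in conduit samples 1 to 3. It was highest in injury sample 2 and lowest in injury sample 1, so the conduit values lay inside the injury range, and the log2 fold change was -0.29 (SE 0.36). Csf1r, the growth factor receptor that macrophages need to survive, was measured at 28.9, 49.8 and 39.2 CPM in injury and 68.8, 29.9 and 22.1 CPM in conduit. Conduit sample 1 was the highest and conduit sample 3 the lowest of the 6, and the log2 fold change was 0.04 (SE 0.44). Aif1 encodes IBA1, a calcium-binding protein widely used to stain macrophages. Its values were 9.60, 10.2 and 10.7 CPM in injury and 21.4, 10.7 and 11.4 CPM in conduit, where conduit sample 1 stood apart and the other conduit samples lay at the top of the injury range or just above it. The log2 fold change was 0.51 (SE 0.27).

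Laptm5, a lysosomal membrane protein of blood cells, gave 33.4, 31.1 and 40.99 CPM in injury and 62.9, 48.3 and 32.2 CPM in conduit, with a log2 fold change of 0.44 (SE 0.24). Conduit samples 1 and 2 exceeded all injury samples and conduit sample 3 did not. Ptprc, the pan-leukocyte phosphatase CD45, varied far more within groups than between them, at 2.41, 17.7 and 6.001 CPM in injury and 13.4, 3.89 and 2.89 CPM in conduit. Injury sample 2 and conduit sample 1 were high and injury sample 1 lowest, with a log2 fold change of -0.38 (SE 0.86). Cd53, a tetraspanin of leukocytes, had the same pair of high libraries, at 11.5 and 9.99 CPM, and lay between 4.75 and 6.71 CPM in the other four.

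Adhesion and surface identity genes all had negative fitted changes, from -0.50 to -0.40 on the log2 scale, and none passed. Itgam and Itgb2 encode the α and β chains of the integrin CD11b/CD18, by which macrophages and neutrophils attach and take up complement-coated particles. Itgam stood at 2.36, 8.21 and 7.28 CPM in injury and 8.28, 2.69 and 1.61 CPM in conduit, and Itgb2 at 2.46, 8.04 and 4.10 CPM and 6.76, 2.13 and 1.43 CPM. Both chains were high in injury sample 2 and conduit sample 1 and lowest in conduit sample 3, and the log2 fold change was -0.50 for both (SE 0.69 and 0.67). Adgre1, the F4/80 antigen, was measured at 8.83, 10.5 and 7.71 CPM in injury and 10.98, 4.77 and 4.70 CPM in conduit. Conduit samples 2 and 3 were below all 3 injury samples, and conduit sample 1 was the highest of the 6. Cd84, a receptor by which leukocytes bind each other, ran from 5.22 to 6.58 CPM in injury and from 3.64 to 5.36 CPM in conduit, where only conduit sample 1 reached the injury range. Its log2 fold change was -0.44 (SE 0.21).

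Among the scavenger and resident genes, Siglec1 was the one member whose groups did not overlap; over all genes, 5.41% were higher in every conduit than in every injury library, and 4.22% lower, as 0 members were. Siglec1 encodes sialoadhesin (CD169), a receptor for sialylated surfaces that interferon is known to induce. It stood at 0.721, 1.61 and 5.47 CPM in injury and 22.03, 8.56 and 6.48 CPM in conduit. The mean was 2.60 ± 2.53 CPM (SD, n = 3) in injury and 12.4 ± 8.44 CPM (SD, n = 3) in conduit. Injury sample 1 was the lowest and conduit sample 1 the highest, while injury sample 3 and conduit sample 3 differed by about 1 CPM. The log2 fold change was 2.25 (SE 0.83, edgeR adjusted p = 0.891), so the gene did not pass over all genes. Leaving out injury sample 3 brought the log2 fold change to 3.40, and leaving out conduit sample 1 brought it to 1.53. Its unadjusted p stayed under 0.05 in 13 of 20 other settings, but not without injury sample 1, injury sample 2 or conduit sample 1. With all libraries kept, it was also above 0.05 with no filter on low counts and with replicate or labelled day as a covariate.

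The interferon-induced genes were higher in the same libraries as Siglec1. Of 18 such genes, all 18 were tested, 14 were higher at an unadjusted p under 0.05, 0 passed the adjusted threshold, and the median log2 fold change was 1.76. Among those with the smallest p was Bst2 (log2 fold change 1.54), a tether that holds budding virus. The summed level of the 18 was 601, 477 and 1114 CPM in injury and 2179.5, 1708 and 1771 CPM in conduit, with none of the 18 at 0 throughout. For this sum, as for Siglec1, injury sample 3 was the highest injury library and conduit sample 1 the highest conduit library. The part of these genes in the Siglec1 result was not tested.

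In the other resident and scavenger genes the groups overlapped. Mrc1, the mannose receptor of tissue-resident macrophages, gave 10.8, 20.9 and 8.58 CPM in injury and 17.7, 8.81 and 8.26 CPM in conduit, high in injury sample 2 and conduit sample 1, with a log2 fold change of -0.21 (SE 0.42). Cd163, which takes up haemoglobin bound to haptoglobin, stood at 0.796, 5.49 and 1.40 CPM in injury and 2.15, 1.63 and 0.176 CPM in conduit. Injury sample 2 was the highest and conduit sample 3 the lowest, at 7 counts, and the log2 fold change of -0.96 was no larger than its SE of 0.98. Lyve1, a hyaluronan receptor of vessel-associated macrophages, ran from 2.72 to 3.60 CPM in injury and from 2.34 to 5.36 CPM in conduit (log2 fold change 0.11, SE 0.35). Lyve1 is also made by lymphatic endothelium, and of 6 lymphatic genes tested 0 were higher or lower at an unadjusted p under 0.05, with a median log2 fold change of -0.01. Mmrn1 and Pdpn had the smallest p among them, with log2 fold changes of -2.38 and 0.22, the 6 genes summed to 275 to 311 CPM in injury and 296 to 372 CPM in conduit, and none was at 0 throughout.

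Msr1, the class A scavenger receptor for modified lipoproteins, was measured at 2.54, 3.004 and 2.29 CPM in injury and 6.27, 2.66 and 1.33 CPM in conduit. Conduit sample 1 exceeded every injury sample and conduit sample 3 lay below them all (log2 fold change 0.39, SE 0.53). Cd14, the co-receptor for bacterial lipopolysaccharide, showed the same high library, with 4.66 CPM in conduit sample 1 against 1.54 to 2.79 CPM in the others, and a log2 fold change of 0.41 (SE 0.45).

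Receptors that signal through ITAM adapters, the short tyrosine motifs that start phagocytosis, were mixed in direction. Tyrobp encodes the adapter DAP12 and Trem2 the lipid receptor that uses it. Tyrobp stood at 6.17, 10.9 and 8.41 CPM in injury and 10.01, 4.24 and 4.37 CPM in conduit, and Trem2 at 2.81, 2.93 and 1.78 CPM and 3.06, 1.76 and 1.33 CPM. In both genes conduit samples 2 and 3 were below every injury sample, by little in Trem2, and conduit sample 1 lay among or above the injury samples. The log2 fold changes were -0.45 (SE 0.39) and -0.29 (SE 0.39). Fcgr1a, the high-affinity IgG receptor, and Fcer1g, the γ chain it signals through, were the other pair. Fcgr1a was measured at 2.91, 6.32 and 4.10 CPM in injury and 11.9, 5.47 and 5.25 CPM in conduit, where only injury sample 2 exceeded any conduit sample (log2 fold change 0.76, SE 0.42). Fcer1g gave 10.7, 19.2 and 12.9 CPM in injury and 23.2, 10.2 and 12.8 CPM in conduit (log2 fold change 0.11, SE 0.35). The receptor and its chain were both highest in conduit sample 1, while Fcer1g overlapped between groups throughout.

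The lysosomal and phagocyte genes held the most abundant and the steadiest member. Lyz2 stood at 116, 406 and 167 CPM in injury and 206, 117 and 123 CPM in conduit. Injury sample 2 was far above the rest, conduit samples 2 and 3 were close to injury sample 1, and the log2 fold change was -0.63 (SE 0.49). Lysozyme genes have near-identical copies in the rat, so how reads were divided among them is uncertain. Lgals3, which sensory neurons and Schwann cells can also make, was 95.5, 86.05 and 96.7 CPM in injury and 91.6, 95.8 and 108 CPM in conduit. Its highest library exceeded its lowest 1.25-fold, the smallest range of the 29, and its log2 fold change was 0.09 (SE 0.10).

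Ctss, a lysosomal protease that cleaves the invariant chain in antigen presentation, gave 21.9, 25.6 and 32.1 CPM in injury and 60.9, 21.5 and 26.01 CPM in conduit. Conduit sample 1 was high and the other conduit samples were at the level of injury (log2 fold change 0.44, SE 0.40). Cd68, the lysosomal glycoprotein stained as a phagocyte marker, was 2.64, 5.89 and 7.06 CPM in injury and 7.94, 4.17 and 4.29 CPM in conduit (log2 fold change 0.07, SE 0.42). Injury sample 1 was lowest there, and the conduit values lay within or just above the injury range. Gpnmb, a glycoprotein of lipid-laden phagocytes, osteoclasts and melanocytes, stood at 11.6, 17.1 and 19.9 CPM in injury and 13.9, 9.92 and 12.3 CPM in conduit. It was highest in injury sample 3 and lowest in conduit sample 2, with a log2 fold change of -0.43 (SE 0.23). Of 9 osteoclast genes 4 were tested, 0 higher and 2 lower (unadjusted p under 0.05), led by Mmp9 (log2 fold change -3.41) and Acp5 (log2 fold change -2.34). All 9 genes summed to 27.9, 82.7 and 213 CPM in injury and 26.2 to 36.4 CPM in conduit, the 4 tested were all highest in injury sample 3, and Calcr was at or under 3 counts in every library. Their part in the Gpnmb values was not tested.

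The oxidative burst genes showed the second of the small p-values. Ncf1 encodes p47phox, the cytosolic organiser of the phagocyte NADPH oxidase, and Cybb its membrane catalytic subunit. Ncf1 stood at 5.57, 21.2 and 9.81 CPM in injury and 6.37, 4.57 and 3.04 CPM in conduit, with means of 12.2 ± 8.09 CPM (SD, n = 3) and 4.66 ± 1.67 CPM (SD, n = 3). Injury sample 2 was the highest by more than 2-fold over the next library, and conduit sample 1 exceeded injury sample 1, so the groups overlapped. The log2 fold change was -1.39 (SE 0.51, edgeR adjusted p = 0.890). Without injury sample 2 it was -0.72. The unadjusted p stayed under 0.05 in 10 of 20 other settings, and was above it when any one of conduit samples 2 and 3 and injury sample 2 was left out. With all libraries kept, limma-voom, limma on FPKM, and a covariate for replicate, batch or labelled day also put it above 0.05. Cybb, at 9.40, 32.02 and 10.9 CPM in injury and 25.4, 10.8 and 7.28 CPM in conduit, was high in injury sample 2 and conduit sample 1 and had a log2 fold change of -0.27 (SE 0.63). Both oxidase genes were highest in injury sample 2 and lowest in conduit sample 3.

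P2ry12 and Tmem119, which are used as markers of microglia in the brain, were present at low levels. Which cells of the ganglion made them was not tested. P2ry12, a purine receptor, stood at 4.82, 6.48 and 5.45 CPM in injury and 7.43, 4.09 and 4.07 CPM in conduit (log2 fold change -0.10, SE 0.29), and Tmem119, a membrane protein, at 3.75, 9.15 and 5.64 CPM and 5.41, 1.86 and 1.96 CPM. Conduit samples 2 and 3 lay below all injury samples in both genes, and conduit sample 1 lay above injury sample 1 in both. For Tmem119 the log2 fold change was -1.01 (SE 0.52). Of 9 other genes of microglia and border macrophages 8 were tested, with 0 higher and 1 lower (unadjusted p under 0.05) and a median log2 fold change of -0.10. Bin2 (log2 fold change -1.59) and Sall3 (log2 fold change -0.97) had the smallest p, the 9 genes summed to 33.2 to 57.6 CPM in injury and 29.9 to 58.1 CPM in conduit, and Siglech was at or under 3 counts in every library.

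**Figure D2:**
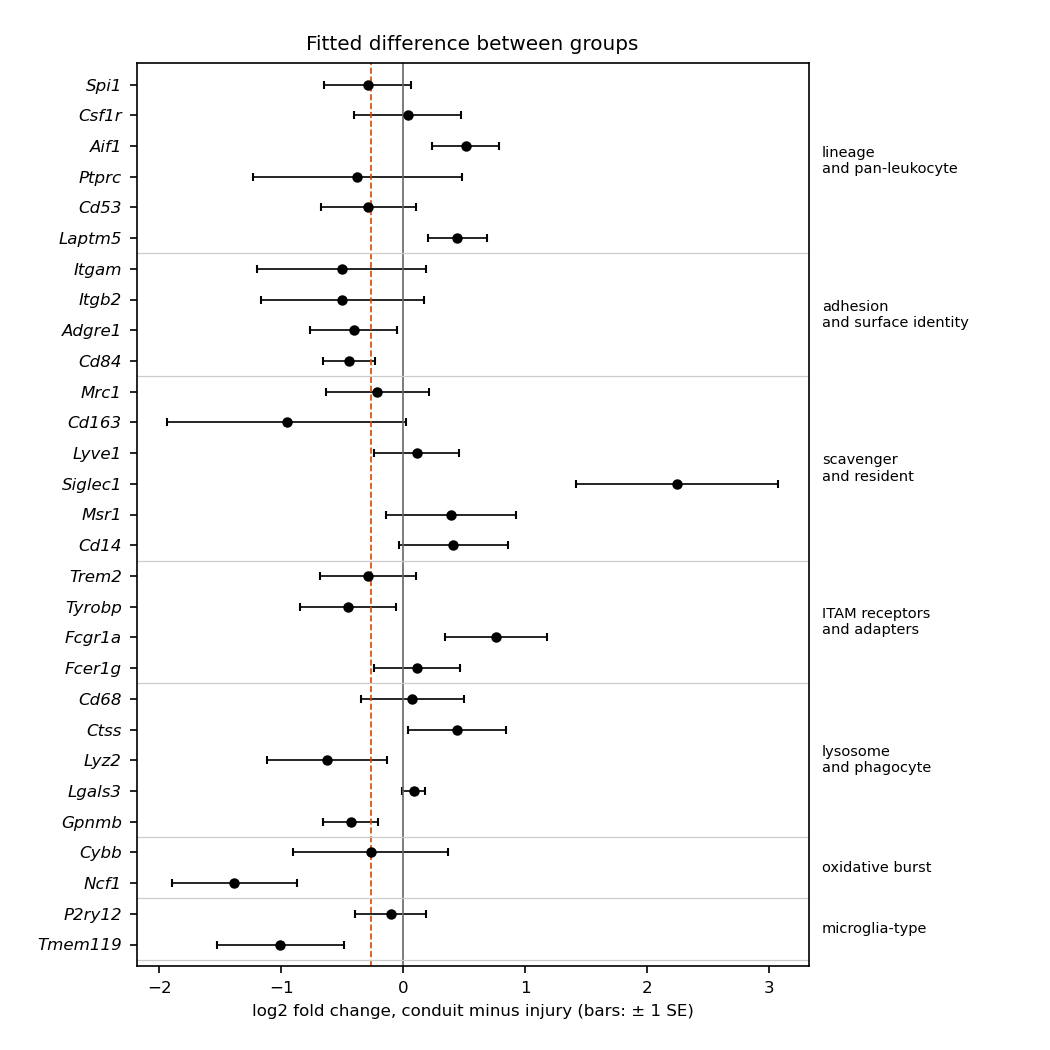
Log2 fold change (conduit minus injury) of each macrophage gene with bars of 1 SE from edgeR, grouped by role, and a dashed line at the members' median of -0.27. Siglec1 lies farthest to the right at 2.25 and Ncf1 farthest to the left at -1.39.

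Most macrophage genes were highest in 1 of the same 2 libraries, which lay in different groups. In 12 members the highest library was injury sample 2 and in 15 it was conduit sample 1, each the highest in 19.3% of all genes, and the exceptions were Gpnmb (injury sample 3) and Lgals3 (conduit sample 3). These 2 libraries thus held the maximum of 27 of 29 members, against 38.7% of all genes tested. The lowest library was conduit sample 3 in 14 members, against 20.8% of all genes, and injury sample 1 in 7, against 20.9%. Conduit sample 1 was the lowest in 0 members, against 19.2%, and injury sample 2 in 2, Laptm5 and Lgals3, against 17.9%. The median deviation of the members from their own mean over the 6 libraries was -0.30, 0.43 and 0.04 on the log2 scale in injury samples 1 to 3 and 0.66, -0.36 and -0.49 in conduit samples 1 to 3. Each group thus held 1 high library and at least 1 low one.

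**Figure D3:**
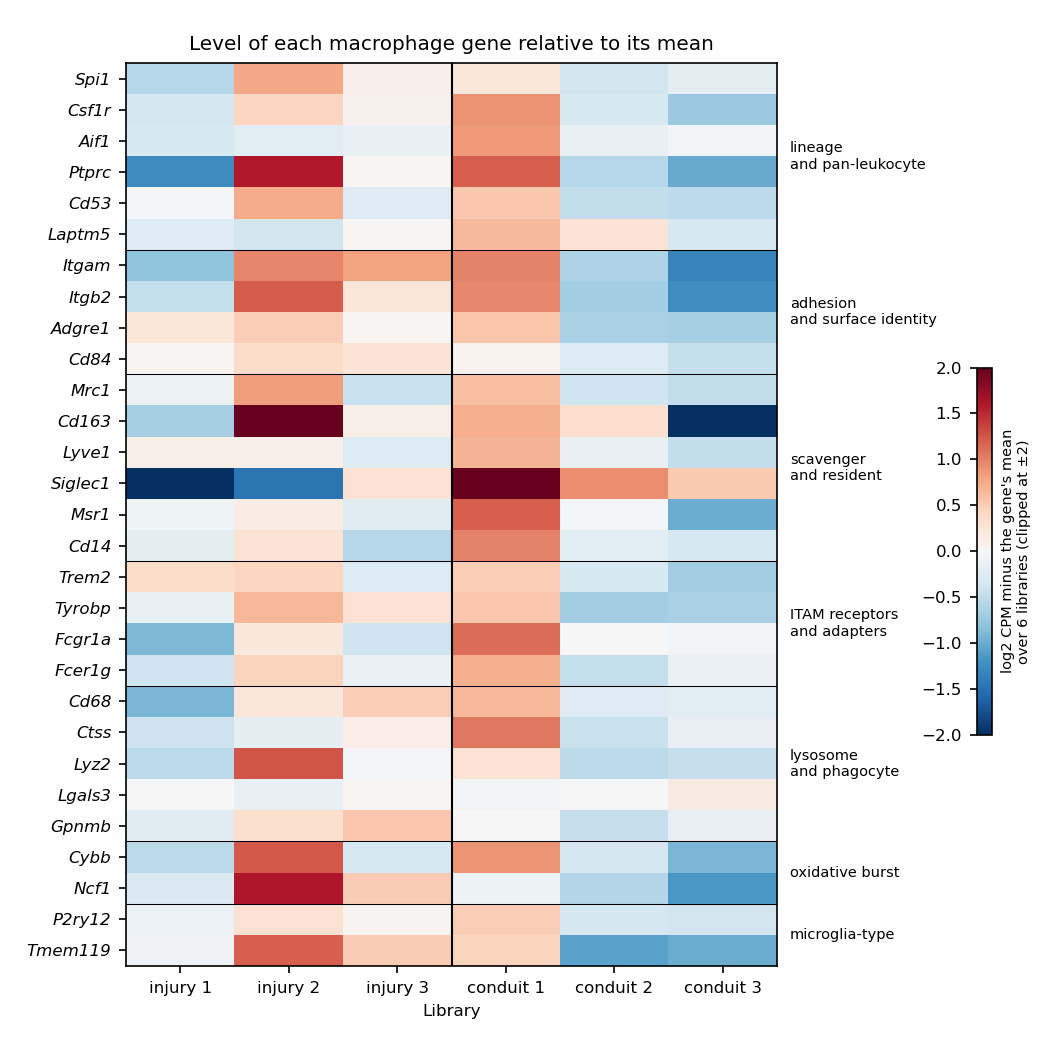
Deviation of each macrophage gene from its mean over the 6 libraries (log2 CPM, colour), with genes listed down by role and libraries across. Injury sample 2 and conduit sample 1 hold the maximum of 27 of 29 genes.

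The members divided between these 2 libraries. Injury sample 2 was highest for Spi1, Ptprc, Cd53, Itgb2, Cd84, Mrc1, Cd163, Tyrobp, Lyz2, Cybb, Ncf1 and Tmem119, which include the oxidase pair, the β2 integrin chain and CD45. Conduit sample 1 was highest for Csf1r, Aif1, Laptm5, Itgam, Adgre1, Lyve1, Siglec1, Msr1, Cd14, Trem2, Fcgr1a, Fcer1g, Cd68, Ctss and P2ry12, which include the growth factor receptor, F4/80, IBA1 and both Fc receptor genes.

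Markers of marrow and blood cells were highest in injury sample 2 as well. Of 12 neutrophil genes 10 were tested, all 10 were highest there, 7 were lower in conduit at an unadjusted p under 0.05, and Ltf was listed at 0 in every library. Camp and S100a8, 2 antimicrobial proteins of neutrophil granules and cytosol, had the smallest p, at -4.71 and -4.08 on the log2 scale. The neutrophil sum was 62.6, 707 and 137 CPM in injury and 18.2, 40.6 and 20.6 CPM in conduit. Conduit sample 1 held the lowest neutrophil sum, and the highest value of 15 macrophage genes. All 7 B cell genes tested of 9 were also highest in injury sample 2, with list sums of 4.20 to 47.6 CPM in injury and 4.19 to 8.28 CPM in conduit and 4 of 7 lower at an unadjusted p under 0.05, led by Pax5 (log2 fold change -2.21) and Jchain (log2 fold change -2.72). All 10 erythroid genes were lower in conduit at that threshold and 9 of them highest in injury sample 2, led by Hba-a2 (log2 fold change -2.74) and Hba-a1 (log2 fold change -2.80), with sums of 4455 to 5312 CPM in injury and 513 to 1274 CPM in conduit. Of 8 dividing-cell genes 5 were lower, led by Aurkb (log2 fold change -1.95) and Birc5 (log2 fold change -1.01), and all 8 were highest in injury sample 2. Their sums were 16.5 to 98.7 CPM in injury and 13.6 to 21.9 CPM in conduit. None of the B cell, erythroid or dividing-cell genes in the table was at 0 throughout, and the part of these cells in the members' values was not tested.

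Fibroblast genes followed the same high libraries as the macrophage genes. Their median deviation was -0.26, 0.43 and -0.26 on the log2 scale in injury samples 1 to 3 and 0.44, 0.07 and -0.39 in conduit samples 1 to 3. All 7 were tested, 0 were higher or lower at an unadjusted p under 0.05, and the median log2 fold change was 0.08. Pi16 (log2 fold change -0.80) and Dcn (log2 fold change 0.43) had the smallest p, the sum ran from 2021 to 3672 CPM in injury and from 2355 to 3797 CPM in conduit, and none was at 0 throughout. Their part in the macrophage values was not tested.

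**Figure D4:**
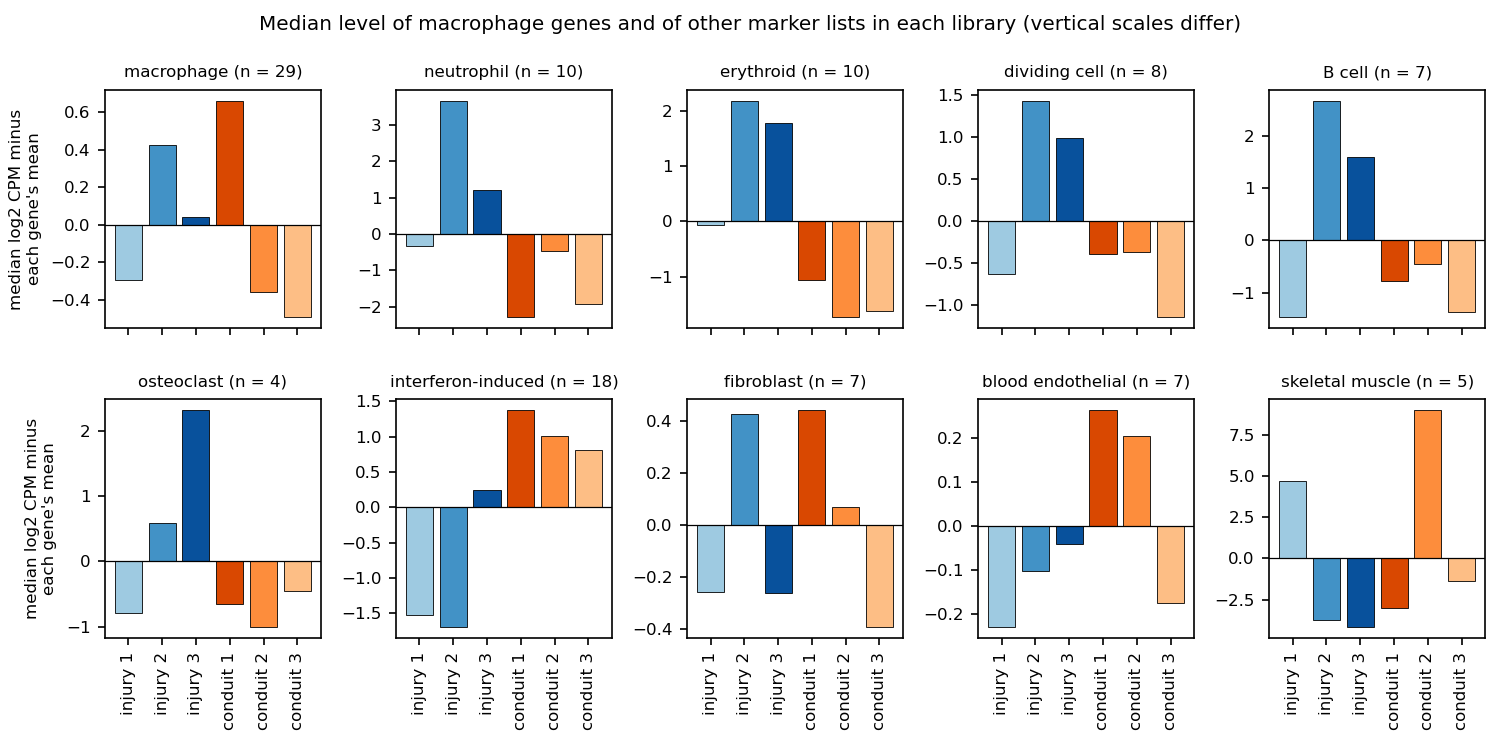
Median deviation (log2 CPM) of the macrophage genes and of marker lists for other cells and responses in each of the 6 libraries, relative to each gene's mean over the 6. The macrophage genes reach 0.43 in injury sample 2 and 0.66 in conduit sample 1, and the neutrophil genes reach 3.66 in injury sample 2 and -2.29 in conduit sample 1.

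Batch 2 was the one batch that held both groups, with injury sample 3 and conduit sample 1. With 1 library on each side there is no test. In that pair 24 of 29 members were higher in conduit, against 49.8% of all genes, and the median difference was 0.72 on the log2 scale, against -0.00115 over all genes. Of these differences, 8 reached 2-fold, against 3.43% of all genes, and 0 members were 2-fold lower, against 3.02%. Siglec1 was 4.03 times as high in conduit sample 1 as in injury sample 3. Batches 1 and 3 held samples of 1 group each.

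The direction of the members' median changed with the libraries compared. Without injury sample 2 it was 0.17 on the log2 scale, with 21 of 29 above 0. Without conduit sample 1 it was -0.59, and 7 members were lower at an unadjusted p under 0.05 by edgeR, against 2.86% of all genes: Adgre1, Cd84, Itgam, Itgb2, Ncf1, Tmem119 and Tyrobp. Injury sample 2 was the highest library of 12 members and conduit sample 1 of 15. Leaving either out thus tends to move the median as seen, and the count of 7 is no separate evidence of a group difference. With batch as a covariate the median was 0.72, and 4 members were higher at that threshold, against 1.18% of all genes: Aif1, Cd14, Ctss and Siglec1. That fit compares the groups through injury sample 3 and conduit sample 1 alone, and conduit sample 1 was the highest library of all 4. The count of 4 is thus no separate evidence of a group difference either. In each of these settings 0 of 29 members passed the adjusted threshold. Aif1, Laptm5, Siglec1 and Fcgr1a had a positive, and Cd84, Ncf1 and Tmem119 a negative, fitted change in every setting run, while the other 22 changed sign in at least 1. The settings reuse the same libraries, so a constant sign is no separate evidence of a group difference. The share of all genes with a constant sign was not counted.

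**Figure D5:**
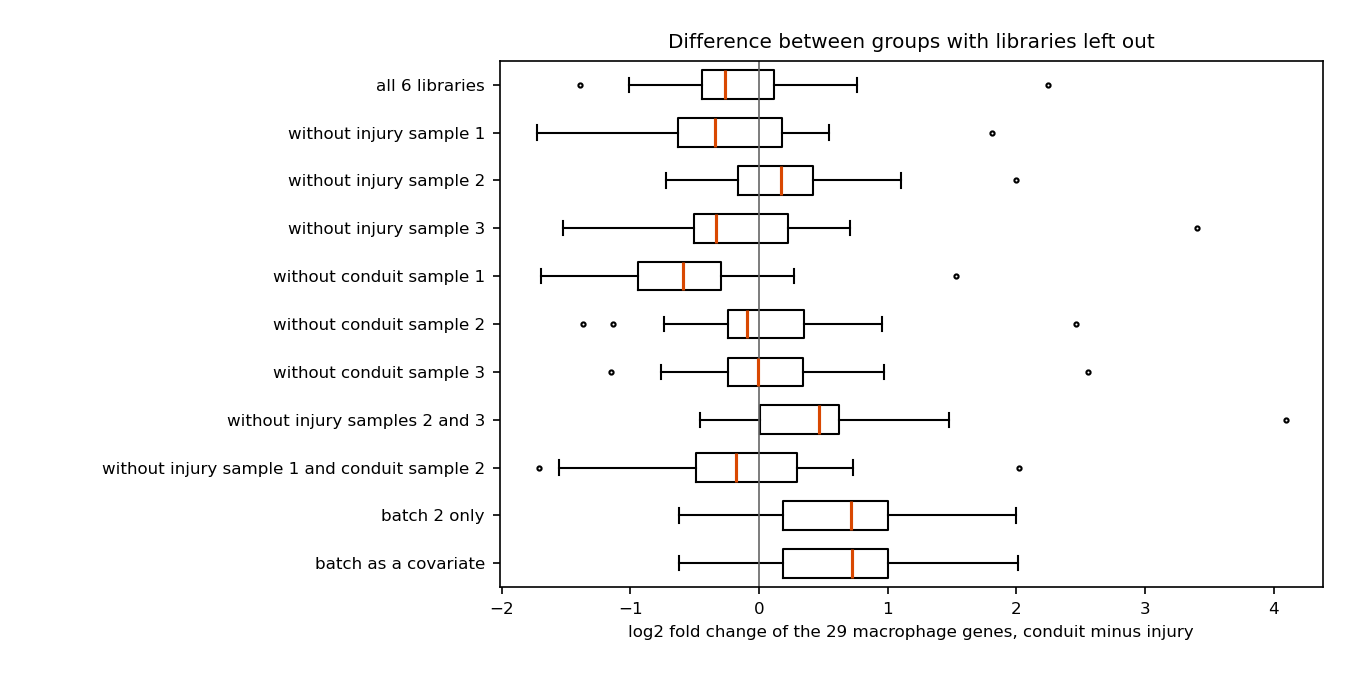
Spread of the 29 macrophage genes' log2 fold changes (conduit minus injury) with all libraries and with libraries left out or batch considered; boxes span the quartiles with the median in colour, whiskers reach 1.5 interquartile ranges and points lie beyond. The median is -0.27 with all 6 libraries, 0.17 without injury sample 2 and -0.59 without conduit sample 1.

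Genes around the macrophage programme were read from 8 further lists, and none of their genes passed the adjusted threshold. Signals that recruit and feed macrophages held 2 genes higher in conduit and 0 lower at an unadjusted p under 0.05, of 8 tested of 9 listed, with Csf2 at 0 in every library and a median log2 fold change of 0.11. Cx3cl1, the neuronal chemokine fractalkine, stood at 8.10, 6.36 and 8.12 CPM in injury and 14.6, 10.8 and 12.96 CPM in conduit (log2 fold change 0.77, SE 0.17). Ccl12, a chemokine for monocytes, stood at 0.597, 0.355 and 0.482 CPM in injury and 2.22, 1.08 and 0.803 CPM in conduit (log2 fold change 1.51, SE 0.49). For both genes every conduit library was above every injury library.

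Monocyte genes had 0 higher and 1 lower of 8 tested, with a median of -0.39. The lower one was Spn, the sialoglycoprotein CD43, at 2.29, 10.9 and 4.82 CPM in injury and 2.17, 1.03 and 1.004 CPM in conduit (log2 fold change -2.09, SE 0.62), with no overlap. Spn is also made by neutrophils and lymphocytes, whose sums were highest in injury sample 2. The part of these cells in the Spn values was not tested.

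Other ITAM signalling genes had 1 higher and 0 lower of 15, with a median of -0.33. The higher one was Fcgr3a, a low-affinity IgG receptor, at 1.17, 1.82 and 1.08 CPM in injury and 6.64, 1.78 and 3.99 CPM in conduit (log2 fold change 1.60, SE 0.50), with overlapping groups. Low-affinity Fc receptor genes are close in sequence, so the division of reads among them is uncertain. Syk, the kinase that binds phosphorylated ITAMs, had a log2 fold change of -1.36 (SE 0.71).

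The transcription factors of the lineage had 1 higher and 0 lower of 12, with a median of -0.01. Maf, a factor of resident macrophages, was the higher one (log2 fold change 0.20, SE 0.08), and the sterol receptor gene Nr1h3 was next (log2 fold change 0.38, SE 0.17). The ganglion was measured whole, so the cells that carried the Maf transcripts are not known, and they need not be macrophages. Genes tied to alternative and classical activation had 1 higher and 0 lower of 9 tested of 14 listed, with a median of -0.14. Arginase, encoded by Arg1, was the higher one (log2 fold change 0.79, SE 0.33), and Apoe, a lipid carrier made mainly by satellite glia in ganglia, was next (log2 fold change 0.22, SE 0.11). Retnla was listed at 0 in every library and Il10 was at or under 3 counts in each.

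Efferocytosis and scavenging genes had 0 higher and 0 lower of 12 tested of 16 listed, with a median of 0.04. The smallest p-values there belonged to Clec7a, the β-glucan receptor (log2 fold change -1.20, SE 0.55), and Pros1, a bridge between dying cells and their receptors (log2 fold change 0.28, SE 0.15), and Marco was listed at 0 in every library. Lysosomal genes had 0 and 0 of 15, with a median of 0.05, led by Hexa, a hexosaminidase subunit (log2 fold change 0.16), and Npc2, a cholesterol carrier (log2 fold change 0.17). NADPH oxidase partners had 0 and 0 of 6, with a median of -0.27. Rac2, the GTPase of the complex (log2 fold change -1.08, SE 0.54), and Ncf4, its p40phox subunit (log2 fold change -0.92, SE 0.48), had the smallest p.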

How the data were processed

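Total RNA from 6 rat trigeminal ganglion samples was extracted with TRIzol and its mRNA sequenced, per the labels' protocols. Tools named in the submitters' processing notes are fastp, HISAT2, SAMtools, HTSeq and DESeq2, with the build mRatBN7.2; their versions, the annotation and the strandedness were not given in the sources used here. Deposited counts are whole reads per gene symbol. The deposited FPKM are those counts per gene length and library total, with the same implied length within 1% in all 6 libraries for 14394 of 14394 genes checked, so they are no second measurement.

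Groups came from the sample titles. In R 4.3.3, genes were kept by filterByExpr in edgeR 4.0.16 (minimum count 10), scaled by TMM and tested by the robust quasi-likelihood F test without covariates, with Benjamini-Hochberg adjustment over all 16478 genes. The fit had a common biological coefficient of variation of 0.295 and 4 residual degrees of freedom, and an exact permutation test of 3 against 3 cannot go below p = 0.1. A prior count of 2 was used for log2 CPM. The fit was tested on simulated counts with changes set in genes drawn from all those tested. It recovered 46% of 2-fold and 80% of 4-fold changes, and 7 of its 133 calls were unchanged genes. Genes were simulated independently of each other and without batch, so these shares do not give the recovery for the macrophage members. Alternatives used limma 3.58.1, DESeq2 1.42.0, other scalings and filters, covariates and left-out libraries. Leaving out injury sample 1 with conduit sample 2, which hold muscle transcripts, was chosen after seeing the data.

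The members, marker lists, pathway lists and tests were chosen with earlier results of these data known. Every member was described, and in each list the 2 tested genes with the smallest unadjusted p were named, except for 2 genes that are not reported here. Promoters came from RefSeq (GRCr8) by symbol, a later build than that of the counts.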

Additional observations from a re-analysis of the deposited data

How the results depend on the processing

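The count of macrophage genes past the adjusted threshold was 0 of 29 in each of the 20 other settings that gave a test. Over all genes, where all libraries gave 1 call, the count was 6 with no filter on low counts, 210 with DESeq2, 7 and 3 with limma on log2(FPKM + 1) and log2(FPKM + 0.1), and 0 with batch or labelled day as a covariate. It ranged from 0 (without conduit sample 3) to 38 (without injury sample 1) with 1 library left out, and was 23 without injury samples 2 and 3 and 13 without injury sample 1 and conduit sample 2. The causes were not tested.

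The members' median of -0.27 was below 0 in 16 other settings and above 0 in 5. It was 0.72 with batch and 0.84 with labelled day as a covariate, 0.72 in batch 2 alone and 0.47 without injury samples 2 and 3, and it ranged from -0.59 (without conduit sample 1) to 0.17 (without injury sample 2) with 1 library left out. Of 609 single-gene values across settings, 116 moved by over 1 SE. Labelled day and group do not overlap, and batch and group overlap only in batch 2, so these covariate fits rest on few libraries. The group difference in the batch fit rests on injury sample 3 and conduit sample 1 alone.

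Same-numbered samples of the groups did not deviate together (r = -0.42, 0.06 and -0.07 over genes), so the numbers were not used as pairs. With the replicate block the count over all genes was 0 and the members' median was -0.21.

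Cd163 had the lowest count, 7 in a library. The other members had at least 29 counts in every library, and over all 29 the median SE was 0.42 on the log2 scale.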

Other observations

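Other cells of the ganglion were read from further marker lists, and none of their genes passed the adjusted threshold in edgeR; values beside gene names are log2 fold changes, conduit minus injury. Schwann and myelin genes had 4 of 8 higher and 0 lower in conduit at an unadjusted p under 0.05 and a median log2 fold change of 0.29, led by Egr2 (log2 fold change 0.68), a myelin transcription factor, and Pmp22 (log2 fold change 0.56), a myelin protein. Satellite glia had 0 higher and 0 lower of 7 (Fabp7 0.46, Apoe 0.22), sensory neurons 0 and 0 of 9 (Scn10a -0.18, Avil -0.11), and blood endothelium 0 and 0 of 7 (Cdh5 0.46, Kdr 0.23). The sums were 4184 to 4729 CPM in injury and 4691 to 5522 CPM in conduit for satellite glia, and 9317 to 10436 CPM and 8222 to 11740 CPM for neurons. Blood endothelial genes summed to 203 to 225 CPM in injury and 213 to 276 CPM in conduit.

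Dendritic cell genes had 0 higher and 0 lower of 7 tested (Clec9a 0.68, Cd83 -0.42), with sums of 42.2 to 48.04 CPM in injury and 40.5 to 47.6 CPM in conduit. Mast cell genes had 0 and 1 of 6 (Hdc -1.71, Tpsab1 1.94), and T and NK cell genes 0 and 1 of 5 tested of 12 (Nkg7 -2.40, Cd4 -0.36). Mast cell sums were 41.0 to 49.1 CPM in injury and 42.1 to 49.5 CPM in conduit, and T and NK cell sums 20.5 to 34.9 CPM and 16.5 to 27.8 CPM. Melanocyte genes had 0 and 0 of 3 tested of 7 (Tyrp1 0.23, Pmel -0.25), and skeletal muscle genes 0 and 0 of 5 (Acta1 4.63, Tnnt3 3.93), high in injury sample 1 and conduit sample 2 alone.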
